A study of Mus musculus with 4 samples.

Results

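The genes described here encode 8 scaffold proteins of the postsynaptic density: Homer1, Homer2 and Homer3, Shank1, Shank2 and Shank3, Dlg4 (the protein PSD-95) and Dlgap1 (the protein GKAP). They were chosen by name, and all of their transcripts in the deposited Salmon files were taken by matching identifiers without version to GENCODE mouse release 21. This gave 92 of 115898 matched transcripts and 8 of 35427 genes. The sleep-deprived mice were fear conditioned and then kept awake for 6 h, and the control mice were fear conditioned and then slept for 6 h. Fear conditioning pairs a place or a cue with a shock. All mice were C57BL/6J, were 4 months old and carried both P2RY12CreER, a tamoxifen-dependent Cre recombinase under a gene typical of microglia, and Rpl22HA, the RiboTag allele with which Cre-expressing cells make a tagged ribosomal protein. RNA bound to the tagged ribosomes was pulled down and enriched for polyA. Each of the 2 files per group came from 2 pooled mice and is called a technical replicate in the labels.

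At excitatory synapses these proteins form layers under the receptors. PSD-95 holds glutamate receptors at the membrane, GKAP links PSD-95 to the Shanks, and the Shanks bind the Homers, which bind group I metabotropic glutamate receptors and the calcium channels of the endoplasmic reticulum. Long Homer proteins carry a coiled coil through which they join into tetramers and cross-link their partners. The short protein Homer1a, an immediate early gene product, lacks the coiled coil, binds the same partners and uncouples them, and its rise with wakefulness in neurons is well known. These proteins are known chiefly from neurons, so their messages in a pulldown aimed at microglia are described here as RNA in the sample and are assigned to no cell.

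At the level of genes, files within a group were closer than sampling noise allows for separate libraries, with a chi-square per degree of freedom of 0.207 in the sleep-deprived group and 0.335 in the control group, and were counted as 1 library each (n = 1 per group). No test of sleep deprivation against control was therefore possible. Ratios are sleep-deprived over control, on CPM (reads scaled to library size) by TMM, and the ranges in brackets are exact 95% intervals that cover counting error only. A gene or transcript is called higher or lower where its ratio is at least 2-fold and the interval excludes 1. At the level of transcripts the chi-square per degree of freedom between files of a group was 5.96 in the sleep-deprived group and 6.34 in the control group. The division of reads among similar transcripts thus varied between files by more than the intervals cover, and the value in every file is given for that reason. Each file held between 14431647 and 14877011 estimated reads.

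The labelled tissue, hippocampus, was set against regional markers, in lists written after the values had been seen. Of 10 genes typical of forebrain and hippocampal neurons, 7 lay under 1 TPM in all 4 files, among them Emx1, Emx2, Lhx2 and Tbr1. The others were Prox1, Wfs1 and Neurod6. In the sleep-deprived library Prox1 stood at 10.8 TPM, Wfs1 at 6.70 and Neurod6 at 4.71. In the control library Prox1 stood at 8.37 TPM, Wfs1 at 7.38 and Neurod6 at 5.16. The 10 genes summed to 24.1 and 23.7 TPM in the sleep-deprived files, against 23.2 and 23.3 TPM in the control files. Of 14 genes typical of cerebellar neurons, 11 lay at or above 50 TPM in all 4 files. These summed to 3740 and 3766 TPM in the sleep-deprived files, against 3377 and 3389 TPM in the control files. The data thus go against the label in both groups alike, and the material is called RNA labelled hippocampus below. Homer3 is the Homer best known from cerebellar Purkinje cells, and Homer1 the one best known from forebrain neurons.

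**Figure D1:**
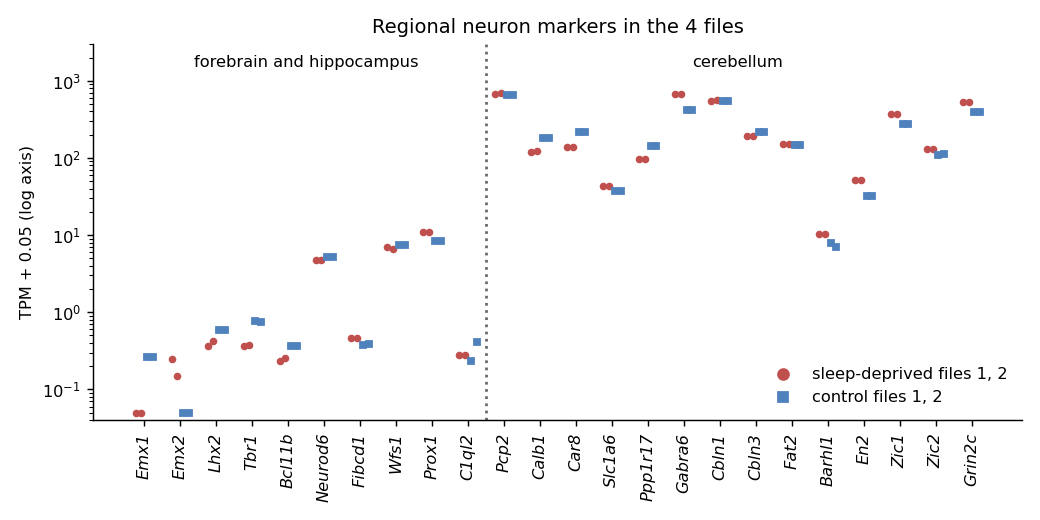
TPM plus 0.05 on a log axis of 10 forebrain and hippocampal genes and of 14 cerebellar genes in the 2 sleep-deprived files (red circles) and the 2 control files (blue squares). In all 4 files 7 of the 10 forebrain genes sit under 1 TPM and 11 of the 14 cerebellar genes at or above 50 TPM.

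Markers of several cell types differed between the libraries. Over all 14907 measured genes, 4.24% were called higher and 5.65% lower. Of 12 microglial markers 10 were called higher in the sleep-deprived library, and their summed level was 568 CPM there and 176 CPM in the control library. Of 10 astrocyte markers 3 were called lower, with sums of 1338 CPM in the sleep-deprived library and 2162 CPM in the control library. Of 9 oligodendrocyte markers 2 were called lower, with sums of 2231 CPM in the sleep-deprived library and 3566 CPM in the control library. None of 10 general neuronal markers was called, with sums of 3431 CPM in the sleep-deprived library and 3621 CPM in the control library, a ratio of 0.947 (0.936 to 0.959). Single neuronal markers ran from 0.742 for Snap25 to 1.70 for Slc17a7, with 6 above 1 and 4 below. Of 6 inhibitory neuron markers 5 were measured and 0 of these called, with sums of 343 CPM in the sleep-deprived library and 558 CPM in the control library. Genes of the cerebellar list did not move as 1 group. Of its Purkinje cell genes, Calb1 had a ratio of 0.557, Car8 of 0.547, Ppp1r17 of 0.582, Slc1a6 of 0.985 and Pcp2 of 1.06. Of its granule cell genes, Cbln3 had a ratio of 0.773, Cbln1 of 0.890, Fat2 of 0.894 and Gabra6 of 1.37. The remaining genes of the list were Zic2 at 0.918, Zic1 at 1.03, Grin2c at 1.16, En2 at 1.36 and Barhl1 at 1.71. In such bulk RNA, fewer cells of a type and less RNA per cell cannot be told apart, and the part of these shifts in the values below was not tested.

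All 8 scaffold genes were measured and 0 of the 8 were called, where 4.24% of 14907 measured genes were called higher and 5.65% lower. Ratios lay above 1 for Homer1, Homer3, Shank1 and Shank3 and below 1 for Homer2, Shank2, Dlg4 and Dlgap1. On deposited TPM, where the median gene was at 1.16, Shank2 was at 1.03, and over protein-coding transcripts alone Homer3 was at 0.981 and Dlg4 at 1.02. Their median log2 ratio was 0.05, and that of all measured genes was -0.01 with quartiles of -0.39 and 0.35. With a fold of 1.5 in place of 2 the calls were Homer2, lower, and Shank1, higher, where that rule called 26.1% of all measured genes.

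The Homer genes ranged widely in level. Homer1 (ENSMUSG00000007617, GRCm38 chr13:93299635-93405129, plus strand) had 358 and 357 estimated reads in the sleep-deprived files, against 311 and 317 in the control files. The ratio was 1.21 (1.04 to 1.42). Homer2 (chr7:81600481-81707527, minus strand) had 120 and 121 reads in the sleep-deprived files, against 241 and 245 in the control files. Its ratio of 0.526 (0.419 to 0.657) was the lowest of the 8 genes in scaled reads, where 7.35% of measured genes had a lower one. That rank was lost on deposited TPM, at 0.988, and with the length offset, at 0.846, where Dlg4 and Dlgap1 were lower. Homer3 (chr8:70282827-70294361, plus strand) had 1913 and 1878 reads in the sleep-deprived files, against 1885 and 1874 in the control files. In reads the files of the groups overlapped, and the scaled ratio was 1.07 (1.01 to 1.15).

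Among the Shank genes, which encode the large scaffolds between GKAP and Homer, Shank1 (chr7:44310253-44360572, plus strand) stood highest in ratio. It had 3980 and 3982 reads in the sleep-deprived files, against 2575 and 2577 in the control files. Its ratio of 1.64 (1.56 to 1.73) was exceeded by 9.8% of measured genes. Shank3 (chr15:89499623-89560261, plus strand) had 1796 and 1785 reads in the sleep-deprived files, against 1334 and 1323 in the control files, a ratio of 1.43 (1.34 to 1.54). Shank2 (chr7:144001928-144424494, plus strand) went the other way. It had 4126 and 4129 reads in the sleep-deprived files, against 5210 and 5176 in the control files, a ratio of 0.846 (0.812 to 0.881).

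Of the membrane-side scaffolds, Dlg4 (chr11:70016942-70047522, plus strand) had 3100 and 3112 reads in the sleep-deprived files, against 3313 and 3319 in the control files. After scaling the libraries stood at 219.6 CPM in the sleep-deprived and 220.3 CPM in the control group, a ratio of 0.997 (0.949 to 1.05). Dlgap1 (chr17:69969073-70821413, plus strand) had 3791 and 3760 reads in the sleep-deprived files, against 5314 and 5240 in the control files. Its ratio was 0.761 (0.730 to 0.794). Files of one group differed by at most 1.93% in the reads of any of these genes, and the scaled ratio of each gene but Dlg4 departed from 1 by more than that. The gap between files does not measure the spread between mice.

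**Figure D2:**
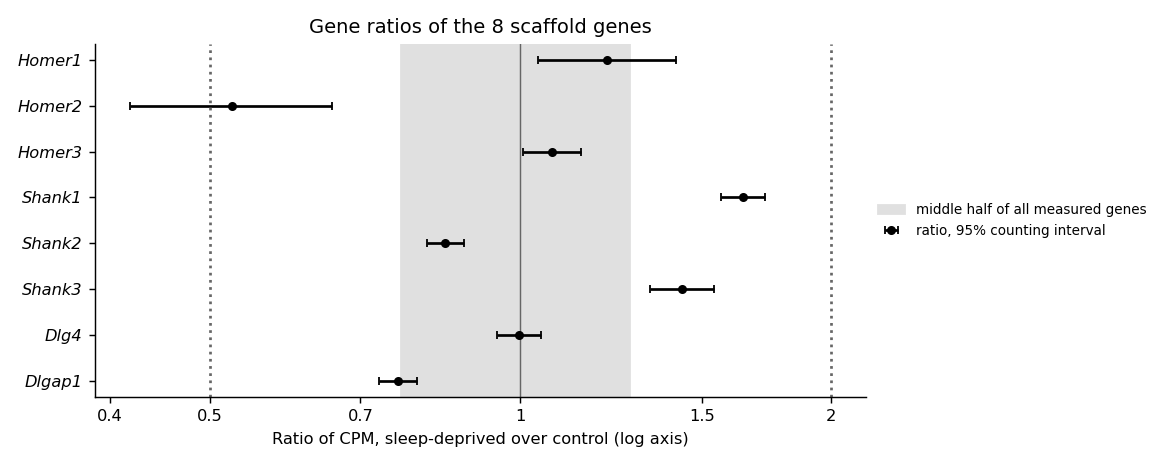
Ratio of CPM, sleep-deprived over control, for each scaffold gene on a log axis, with exact 95% counting intervals (n = 1 library per group). The grey band spans the quartiles of all measured genes and the dotted lines mark the 2-fold rule. Shank1 and Shank3 lie above the band, Homer2 and Dlgap1 below or at its lower edge, and no ratio passes 2-fold.

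Levels between genes were compared per length, in TPM over coding transcripts alone. In the sleep-deprived library Dlg4 stood at 128 TPM, Homer3 at 104, Dlgap1 at 98.8, Shank2 at 71.9, Shank1 at 54.7, Shank3 at 49.8, Homer1 at 16.1 and Homer2 at 2.43 TPM. In the control library Dlgap1 stood at 110 TPM, Homer3 at 96.3, Dlg4 at 91.4, Shank2 at 72.6, Shank3 at 36.1, Shank1 at 28.6, Homer1 at 11.0 and Homer2 at 2.46 TPM. The order of Dlg4, Homer3 and Dlgap1 among themselves, and that of Shank1 and Shank3, thus differed between libraries, while Homer1 and Homer2 were lowest in both. Over all transcripts Dlg4 reached 163 and 196 TPM in the sleep-deprived files, against 189 and 236 TPM in the control files. Of this, the 301-base retained-intron transcript Dlg4-207 gave a mean of 51.0 TPM on 13.8 and 26.3 reads in the sleep-deprived files, and a mean of 121 TPM on 48.2 and 70.0 reads in the control files. A few reads on a very short transcript thus set a large part of the summed TPM of Dlg4. TPM ratios of measured genes had a median of 1.16 between the libraries, so the TPM of a gene is read against that shift.

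**Figure D3:**
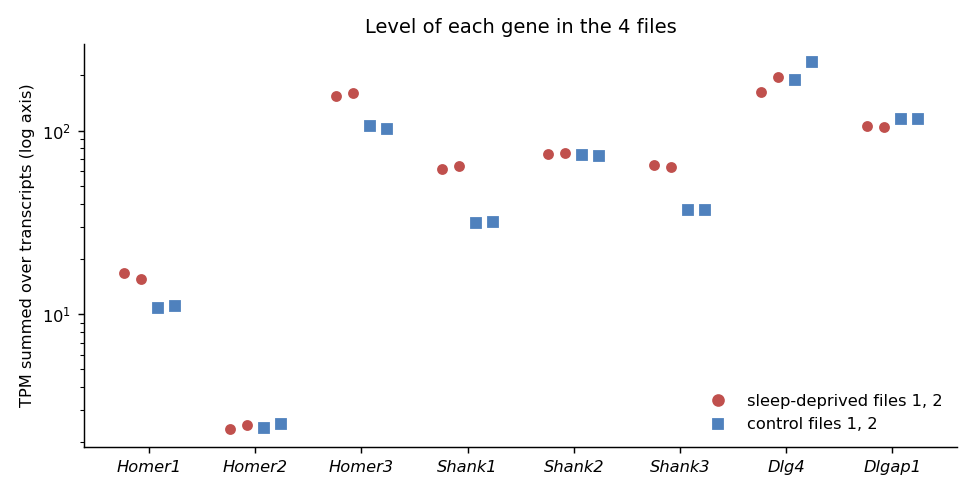
TPM summed over all transcripts of each scaffold gene, on a log axis, in the 2 sleep-deprived files (red circles) and the 2 control files (blue squares). Shank1 stands at 61.9 and 64.0 TPM in the sleep-deprived files, against 31.2 and 31.8 TPM in the control files. The median measured gene has a TPM ratio of 1.16, and Dlg4 includes a 301-base transcript with few reads.

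The transcripts of Homer1 differ in the end of their protein. Homer1-204 and Homer1-202 share an exon and then part. In Homer1-204, the form with the ending of Homer1a, the shared exon runs on into the intron, and in Homer1-205 another exon of the same intron follows. In Homer1-202 and Homer1-203 the exons of the coiled coil follow. The last 30 bases of the shared exon (GRCm38 chr13:93356050-93356079, plus strand) are given in lower case and the coding bases that follow in capitals, to the end of the coding part for Homer1-204 and for 60 bases in the others.
Homer1-204: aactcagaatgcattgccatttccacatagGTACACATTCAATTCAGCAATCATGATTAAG
Homer1-205: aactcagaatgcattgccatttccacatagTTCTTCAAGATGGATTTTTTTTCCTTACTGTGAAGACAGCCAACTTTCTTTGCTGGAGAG
Homer1-202: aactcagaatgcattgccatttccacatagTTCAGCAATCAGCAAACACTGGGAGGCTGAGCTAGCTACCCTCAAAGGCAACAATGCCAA
Homer1-203: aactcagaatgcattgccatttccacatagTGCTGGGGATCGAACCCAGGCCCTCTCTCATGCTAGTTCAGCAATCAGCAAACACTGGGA

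Homer1 transcripts were first split by length, at the widest gap between sorted lengths, which lay between 815 and 1533 bases. The 5 transcripts of 815 bases or fewer held 7.59 and 0 reads in the sleep-deprived files and 0 reads in both control files. All of these reads were on Homer1-211, and the other 4 short transcripts were listed at 0 in every file. In TPM the share of the short transcripts was 5.51% in the sleep-deprived library, all of it from 1 file, and 0 in the control library. In reads the share was 1.06% (0.305 to 2.84) in the sleep-deprived library and 0% (0 to 1.17) in the control library, with overlapping intervals.

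Length of the mRNA did not sort Homer1 by protein. The longest transcript, Homer1-204 with 5713 bases, encodes 186 residues, while Homer1-202 with 4287 bases encodes 370. A split by the annotated protein, at the gap between 233 and 354 residues, put 8 transcripts with a short protein against 3 with a long one. Short-protein transcripts held 140 and 127 reads in the sleep-deprived files, against 96.2 and 101 in the control files. Their ratio was 1.44 (1.10 to 1.89), which was not called. Long-protein transcripts held 218 and 230 reads in the sleep-deprived files, against 215 and 216 in the control files, at a ratio of 1.10 (0.911 to 1.34). The short-protein share of Homer1 reads was 37.3% (32.1 to 42.4) in the sleep-deprived library and 31.3% (26.1 to 36.7) in the control library, and these intervals overlapped. In TPM the share was 53.1% in the sleep-deprived library and 45.9% in the control library. This difference of 7.16 points was 2.79 points without the first sleep-deprived file and 11.3 points without the second. Homer1-211 alone held 5.51% of Homer1 TPM in the sleep-deprived library, all of it from the first file. Without Homer1-211, short-protein transcripts held 132 and 127 reads in the sleep-deprived files, against 96.2 and 101 in the control files. Their ratio was then 1.40 (1.07 to 1.84).

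Among single Homer1 transcripts, Homer1-204 had 74.7 and 69.5 reads in the sleep-deprived files, against 47.3 and 50.3 in the control files. Its ratio was 1.56 (1.07 to 2.30), which did not reach 2-fold. It is told apart from the other Homer1 transcripts by 4383 bases that no other one holds. Homer1-205, which encodes 203 residues, had 57.7 and 57.1 reads in the sleep-deprived files, against 47.7 and 49.1 in the control files, at a ratio of 1.26 (0.846 to 1.90). Homer1-202 had 218 and 202 reads in the sleep-deprived files, against 194 and 197 in the control files, at a ratio of 1.15 (0.939 to 1.40). Both of these short-protein forms and the main long-protein form thus had ratios above 1, and only the interval of Homer1-204 excluded 1. Homer1-203 had 0 and 28.9 reads in the sleep-deprived files, against 21.2 and 19.7 in the control files. Its sleep-deprived files disagreed, and no direction is read from its ratio of 0.745 (0.348 to 1.55), which was 0.159 and called lower when the second sleep-deprived file was left out. The remaining 7 transcripts (Homer1-201 and Homer1-206 to Homer1-210, with Homer1-212) held at most 1.22 reads in any file.

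**Figure D4:**
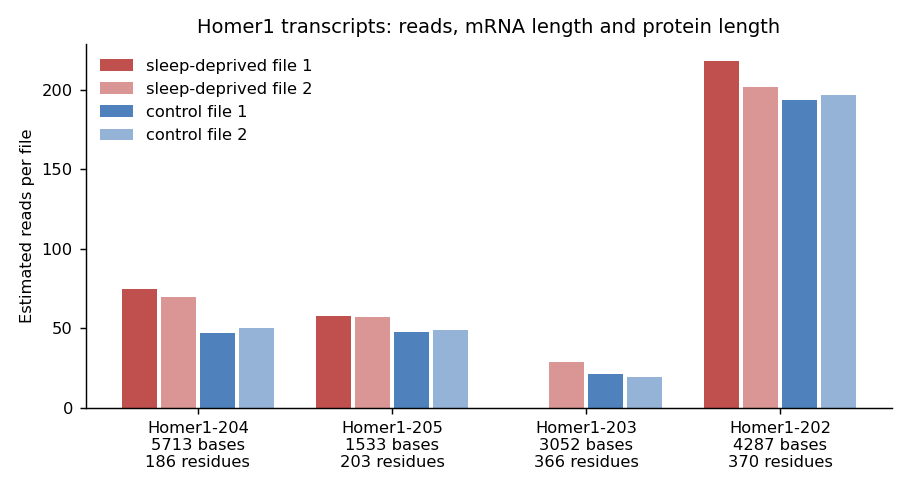
Estimated reads of the 4 measured Homer1 transcripts in each sleep-deprived file (red) and each control file (blue), with mRNA length and annotated protein length under each name. The longest mRNA, Homer1-204, encodes the shortest of these proteins, and its files hold 74.7 and 69.5 reads in the sleep-deprived group, against 47.3 and 50.3 reads in the control group.

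Measured Homer1 transcripts also differ in their start. Homer1-202 begins at its own first exon (chr13, base 93308034), and the other measured transcripts begin upstream of it, between bases 93304495 and 93305184. Upstream-start transcripts together had a ratio of 1.32 (1.03 to 1.70), and Homer1-202 one of 1.15, with overlapping intervals. RefSeq promoters on GRCm38.p6 hold 250 bases before each of a pair of Homer1 starts, shown here because they are alternative promoters of the gene. The upstream RefSeq start, at base 93303757, lies before those of the measured transcripts. Capitals mark TGACG, the core of the site bound by CREB, searched on both strands as TGACG and CGTCA. The upstream promoter (chr13:93303507-93303756, plus strand) holds 3 matches and the downstream one (chr13:93307784-93308033, plus strand) 0, and 17.8% of 32851 promoters hold at least 1. The full palindrome TGACGTCA, held by 1.55% of promoters, is in neither. A match is a description of the letters and not of binding.
Homer1 upstream: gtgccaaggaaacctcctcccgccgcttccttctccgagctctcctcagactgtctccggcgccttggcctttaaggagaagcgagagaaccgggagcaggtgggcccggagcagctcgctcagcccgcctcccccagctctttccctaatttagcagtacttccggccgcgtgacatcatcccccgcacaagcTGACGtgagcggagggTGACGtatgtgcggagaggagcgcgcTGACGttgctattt
Homer1 downstream: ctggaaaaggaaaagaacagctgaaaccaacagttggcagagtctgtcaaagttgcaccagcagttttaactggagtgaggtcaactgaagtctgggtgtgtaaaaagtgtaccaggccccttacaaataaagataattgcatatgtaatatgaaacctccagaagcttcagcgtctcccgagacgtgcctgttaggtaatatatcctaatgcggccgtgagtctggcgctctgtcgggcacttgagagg

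Across all 8 genes 36 of 92 transcripts were measured, with at least 10 reads in the mean of the libraries, and 31 were listed at 0 in every file. Of the 36, 10 (27.8%) were called higher, where 21.8% of 37315 measured transcripts were called higher. A further 4 (11.1%) were called lower, where the background was 12.1%. These shares are near the background and are not read as a result about the scaffolds. Of the 36, 25 were protein coding, and 6 of these were called when only protein-coding transcripts were scaled and counted, where 31.5% of all such transcripts were. A change of at least 10 points in the share of the gene's TPM was found for 9 of 92 transcripts (9.78%), against 16.6% of all transcripts in genes with at least 50 reads. At 5 points the background was 28.9%. The gap between files of a group exceeded 2 standard deviations of counting for 6 of the 36 in the sleep-deprived group and for 7 in the control group. The largest gap was 95.3 reads for Homer3-203 in the sleep-deprived group and 387 reads for Shank2-205 in the control group.

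**Figure D5:**
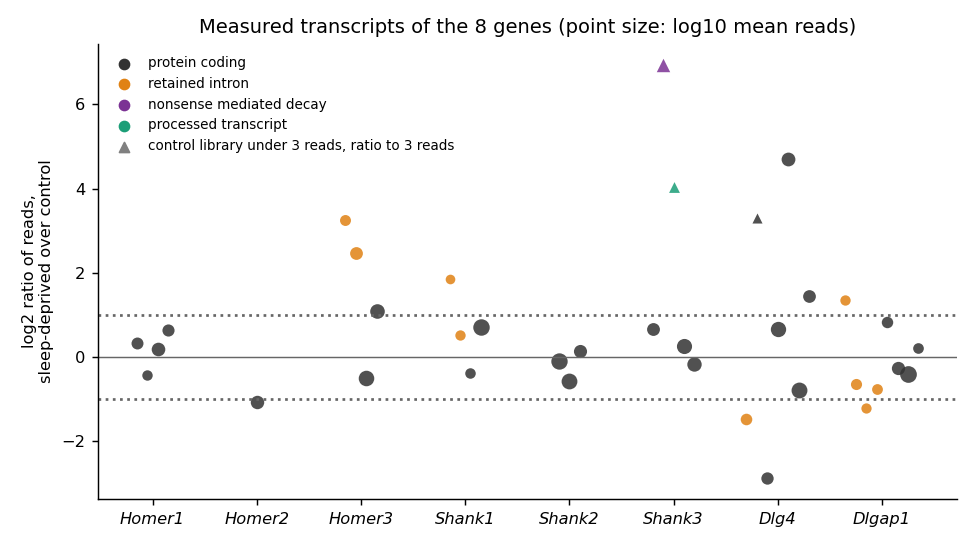
Log2 ratio of reads, sleep-deprived over control, for the 36 measured transcripts, by gene and from shorter to longer within a gene. Colour gives the annotated class, point size the log10 of mean reads, and triangles are ratios to 3 reads where the control library had fewer. Of 9 retained-intron transcripts, 4 lie above 1, and Shank3-208 and Dlg4-203 stand highest.

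Homer2 was carried by 1 transcript. Homer2-202, with 10982 bases and 290 residues, had 108 and 108 reads in the sleep-deprived files, against 241 and 244 in the control files. It was called lower at 0.475 (0.375 to 0.598). On deposited TPM, where the median gene was at 1.16, its ratio was 0.556 and not called. Homer2-201, with 1736 bases and 343 residues, had 11.8 and 12.7 reads in the sleep-deprived files, against 0 and 1.47 in the control files, and its mean over both libraries was under 10 reads. Since it is short, it held 44.9% of Homer2 TPM in the sleep-deprived library, against 2.15% in the control library, on 10.1% of the reads in the sleep-deprived library and 0.302% in the control library. The TPM of the gene was therefore close between groups, at 2.43 TPM in the sleep-deprived library and 2.46 TPM in the control library, a ratio of 0.988.

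Homer3 held most of its reads on a pair of coding transcripts of 359 residues each, which begin at different bases. Homer3-201 lies wholly within the exons of Homer3-203, which adds runs of 102, 12 and 8 bases. The division of reads between the pair therefore rests on few bases. Homer3-201 had 979 and 1002 reads in the sleep-deprived files, against 1526 and 1449 in the control files, at a ratio of 0.708 (0.653 to 0.768). Homer3-203, which begins upstream, had 720 and 625 reads in the sleep-deprived files, against 292 and 378 in the control files, and was called higher at 2.13 (1.87 to 2.44). Leaving out the first control file gave 1.89 and leaving out the first sleep-deprived file 1.99, both short of the call. Taken as 1 class the pair had 1699 and 1626 reads in the sleep-deprived files, against 1817 and 1827 in the control files, at a ratio of 0.971 (0.908 to 1.04). Of their exon bases, 37.6% for Homer3-201 and 35.7% for Homer3-203 lie in Ddx49 on the opposite strand, and the use of strand in counting is unknown. Ddx49, an RNA helicase gene, stood at 36.8 CPM in the sleep-deprived library and 25.2 CPM in the control library, a ratio of 1.46 (1.28 to 1.67).

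Retained-intron transcripts of Homer3 differed more than its coding ones. Homer3-207 had 155 and 186 reads in the sleep-deprived files, against 32.1 and 34.3 in the control files, and was called higher at 5.51 (3.78 to 8.27). Homer3-205 had 43.2 and 47.6 reads in the sleep-deprived files, against 6.29 and 4.29 in the control files, and was called higher at 9.58 (3.81 to 30.9). With Homer3-208, these transcripts together held 12.2% of Homer3 reads in the sleep-deprived library and 2.30% in the control library. Over all genes, retained-intron transcripts held 13.3% of reads in the sleep-deprived library and 10.7% in the control library. Of 9 measured retained-intron transcripts of the scaffold genes, 4 were called higher, where 29.5% of all measured ones were. The 2 called lower were Dlgap1-216 and Dlg4-207, the latter at 0.361 (0.206 to 0.608). Over measured transcripts of every class 12.1% were called lower, and the share among retained-intron ones was not counted.

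Shank1 was read almost wholly from Shank1-203, which encodes 2167 residues. It had 3922 and 3933 reads in the sleep-deprived files, against 2534 and 2537 in the control files, at a ratio of 1.65 (1.57 to 1.73). Its share of Shank1 reads was 98.7% in the sleep-deprived library and 98.4% in the control library, so the ratio of the gene was that of its full-length transcript. The retained-intron transcript Shank1-204 had 14.8 and 18.3 reads in the sleep-deprived files, against 4.10 and 5.12 in the control files, and was called higher at 3.62 (1.28 to 12.5). Shank1-206, also a retained-intron transcript, had 17.3 and 21.6 reads in the sleep-deprived files, against 13.2 and 14.5 in the control files. It was not called, at 1.44 (0.687 to 3.11).

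Shank2 has coding starts far apart along the gene, and 3 of its measured transcripts begin at different ones. The first 60 coding bases of each, on the plus strand of chromosome 7, show that the proteins differ at their amino end. Capitals mark bases that are coding in none of the other 2, and the coding parts start at bases 144031264 (Shank2-203), 144175920 (Shank2-202) and 144284969 (Shank2-205).
Shank2-203: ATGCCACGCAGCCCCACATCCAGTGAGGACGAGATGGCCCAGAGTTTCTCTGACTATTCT
Shank2-202: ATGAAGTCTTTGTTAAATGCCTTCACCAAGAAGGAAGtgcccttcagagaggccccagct
Shank2-205: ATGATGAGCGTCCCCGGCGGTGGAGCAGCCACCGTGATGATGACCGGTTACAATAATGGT

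The shortest of these, Shank2-205 with 1262 residues, had 2722 and 2704 reads in the sleep-deprived files, against 3263 and 2876 in the control files, at a ratio of 0.941 (0.893 to 0.991). Shank2-202, with 1472 residues, had 1260 and 1276 reads in the sleep-deprived files, against 1807 and 2171 in the control files, at a ratio of 0.678 (0.632 to 0.728). Shank2-203, with 1841 residues, had 133 and 136 reads in the sleep-deprived files, against 135 and 126 in the control files, at a ratio of 1.11 (0.862 to 1.42). Without the first control file Shank2-205 was at 1.002 (0.951 to 1.06) and Shank2-202 at 0.620, so the direction of Shank2-205 rests on that file. The control files split these 2 unequally, and the share of Shank2 TPM was 64.3% in the sleep-deprived library and 60.4% in the control library for Shank2-205. For Shank2-202 it was 28.1% in the sleep-deprived library and 36.7% in the control library.

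As Salmon divided the reads, the difference in Shank3 lay mostly on transcripts that begin within the gene. Shank3-208, which has 4161 bases and is annotated as subject to nonsense-mediated decay, had 317 and 376 reads in the sleep-deprived files and 0 in both control files. Against a floor of 3 reads in the control library it was 123-fold higher, and the lower limit of its counting interval was 99.6. Shank3-209, which begins at the same base (chr15, base 89523761) and encodes 382 residues, had 142 and 114 reads in the sleep-deprived files, against 88.8 and 83.6 in the control files, at a ratio of 1.58 (1.20 to 2.11). As 1 class these 2 had 459 and 490 reads in the sleep-deprived files, against 88.8 and 83.6 in the control files, at a ratio of 5.88 (4.66 to 7.48). Only 28 bases of Shank3-208 are in no other Shank3 transcript, so its zero in the control files rests on how Salmon divided shared reads. Runs of 265 and 28 bases of Shank3-208, and of 265 bases of Shank3-209, are absent from Shank3-203. All their other bases are shared with it, so the ratio of the class rests on that division too.

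The other main Shank3 transcripts differed less. Shank3-201 had 911 and 861 reads in the sleep-deprived files, against 796 and 765 in the control files, at a ratio of 1.21 (1.10 to 1.33). Its length in the files is not that of release 21, so no exon structure is given for it. Shank3-203, with 1805 residues, had 395 and 352 reads in the sleep-deprived files, against 435 and 455 in the control files, at a ratio of 0.892 (0.775 to 1.03). These 2 together had 1306 and 1213 reads in the sleep-deprived files, against 1230 and 1219 in the control files, at a ratio of 1.09 (1.01 to 1.18), while the whole gene was at 1.43. Shank3-202, a processed transcript, had 20.9 and 70.4 reads in the sleep-deprived files and 0 in both control files, and was called higher against the floor. Shank3-207 had 4.28 and 5.95 reads in the sleep-deprived files, against 12.1 and 12.6 in the control files. Its mean over both libraries was under 10 reads, and its ratio was 0.443 (0.122 to 1.35).

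Dlg4 transcripts differ at both ends. Dlg4-203 and Dlg4-215 start their coding part at base 70018920 of chromosome 11, plus strand, and encode 724 and 721 residues, while Dlg4-201 starts at base 70030625 and encodes 664. The amino end of the main form of PSD-95 is known to be palmitoylated, which anchors it in the membrane. The first 60 coding bases are shown for the upstream and the downstream start, with capitals for bases that are not coding in the other transcript.
Dlg4-203: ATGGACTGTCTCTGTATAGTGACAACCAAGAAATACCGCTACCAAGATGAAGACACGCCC
Dlg4-201: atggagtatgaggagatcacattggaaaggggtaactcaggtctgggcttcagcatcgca

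Dlg4-203 had 470 and 457 reads in the sleep-deprived files, against 22.9 and 14.8 in the control files, and was called higher at 25.9 (16.4 to 43.5). Every base of Dlg4-203 is also in another Dlg4 transcript, so its ratio rests on how Salmon divided shared reads. Dlg4-215 had 1222 and 1236 reads in the sleep-deprived files, against 2251 and 2248 in the control files, at a ratio of 0.582 (0.542 to 0.624). Their coding parts differ by 9 bases, and Dlg4-215 runs 1990 bases further at the 3′ end, beyond the coding part. As 1 class these upstream-start forms had 1691 and 1693 reads in the sleep-deprived files, against 2274 and 2263 in the control files, at a ratio of 0.794 (0.745 to 0.846). The files of a group lay close together in that sum, and the ratio of Dlg4-203 was the highest among measured scaffold transcripts that had at least 3 reads in both libraries.

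The downstream-start form Dlg4-201 had 1189 and 1185 reads in the sleep-deprived files, against 921 and 659 in the control files, at a ratio of 1.60 (1.46 to 1.75). Every base of Dlg4-201 is likewise in another Dlg4 transcript. Dlg4-218, with the same coding length, had 22.8 and 9.22 reads in the sleep-deprived files, against 0 and 250 in the control files. It was called lower at 0.136 (0.0755 to 0.230), but its control files disagreed, and without the second control file its ratio was 5.69. Taken as 1 class the 2 had 1212 and 1194 reads in the sleep-deprived files, against 921 and 909 in the control files, at a ratio of 1.40 (1.28 to 1.53). In that sum the control files lay close together. The upstream-start class at 0.794 and the downstream-start class at 1.40 lay on opposite sides of 1 in scaled reads, while Dlg4 as a gene was at 0.997. In deposited TPM both were above control, with 50.1 and 50.2 TPM in the sleep-deprived files, against 46.6 and 46.5 TPM in the control files, for the upstream-start class. The downstream-start class had 65.4 and 64.6 TPM in the sleep-deprived files, against 39.8 and 41.0 TPM in the control files. Set against the median TPM ratio of 1.16 over measured genes, the upstream-start class was lower and the downstream-start class higher. Dlg4-214, which begins upstream at base 70018879, encodes 273 residues and is in neither class, was called higher at 2.72 (1.98 to 3.77), on 142 and 143 reads in the sleep-deprived files, against 54.5 and 56.8 in the control files.

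Dlgap1 was read mostly from Dlgap1-211, which encodes 682 residues and begins inside the gene. It had 3501 and 3471 reads in the sleep-deprived files, against 4969 and 4886 in the control files, at a ratio of 0.753 (0.721 to 0.786). Its share of Dlgap1 reads was 92.3% in the sleep-deprived library and 93.4% in the control library. Dlgap1-210, an upstream-start form of 944 residues, had 131 and 136 reads in the sleep-deprived files, against 179 and 161 in the control files, at a ratio of 0.839 (0.664 to 1.06). Of the retained-intron transcripts Dlgap1-212 was called higher at 2.55 (1.18 to 5.98) and Dlgap1-216 lower at 0.435 (0.176 to 0.984), each on fewer than 25 reads in any file. The call of Dlgap1-216 ended without the second sleep-deprived file, at 0.483.

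Genes that work with these scaffolds were taken from lists chosen with earlier results of the data known. Of 25 other postsynaptic density scaffolds and partners, all measured, 1 was called higher and 0 lower. The background over all measured genes was 4.24% higher and 5.65% lower. Of the 25, 12 had ratios above 1 and 13 below, and the median log2 ratio was -0.07. Dlg1, which encodes SAP97 and had the most reads of the 25, stood at 554 CPM in the sleep-deprived library and 417 CPM in the control library, a ratio of 1.33 (1.28 to 1.37). The genes nearest to Homer1 in log2 ratio among these were Arhgef7 (1.21), Iqsec2 (1.20) and Dlgap4 (1.26), a likeness that rests on 2 libraries only.

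Among 8 partners bound by Homer proteins, 1 was called higher and 1 lower, where 4.24% of all measured genes were called higher and 5.65% lower. Agap2, the GTPase PIKE that links Homer to phosphoinositide 3-kinase, stood at 309 CPM in the sleep-deprived library and 142 CPM in the control library, a ratio of 2.18 (2.07 to 2.30). Grm5, a group I metabotropic glutamate receptor, stood at 3.68 CPM in the sleep-deprived library and 8.37 CPM in the control library, a ratio of 0.439 (0.312 to 0.611). The calcium channels of the endoplasmic reticulum parted, with Ryr2 at 1.79 (1.75 to 1.84) and Itpr1 at 0.710 (0.695 to 0.726). Arc, an immediate early gene, had a ratio of 0.795 (0.653 to 0.967). Of 4 scaffold genes of inhibitory synapses 0 were called. The ratio was 1.62 for Nlgn2, 1.03 for Gphn and 0.637 for Insyn1.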

How the data were processed

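The submitters' processing notes name Salmon, DESeq2 and mm10, without versions. The authors deposited, per the file headers, the length, the effective length, the TPM and the estimated count of 116546 transcripts in each of 4 files. The estimated counts are fractional and not normalized, and the deposited TPM values are scaled to length and depth by the authors. The annotation, read layout and use of strand were not given in the sources used here.

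Groups were taken from the sample titles, since the treatment field names sleep deprivation for all 4 samples. Of the transcripts 115898 (99.4%) matched GENCODE mouse release 21 on GRCm38, and unmatched ones held between 0.339% and 0.366% of the reads of a file. Reads and TPM were summed per gene, the 2 files of a group were averaged to 1 library, and estimated counts were rounded. Libraries were scaled by TMM in edgeR 4.0.16 (R 4.3.3), and measured genes are the 14907 that passed filterByExpr at a minimum count of 10. Ratios carry exact conditional (Clopper-Pearson) 95% intervals from scipy 1.17.1, which cover counting error only, since reads are not independent molecules. A library under 3 reads was set to 3 for a fold. The rule was tested on simulated counts with counting error only. Those counts lack the variation from dividing reads among similar transcripts, so that part of the transcript calls was not tested.

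Named were the 8 genes, every Homer1 transcript, other transcripts with at least 5% of their gene's TPM in either library, and called genes of the lists with the most abundant ones. Transcripts outside that rule, and the classes that join transcripts, were chosen after their values were seen. The genes and lists were chosen with earlier results of these data known. Input RNA was not analysed here. Alternatives were DESeq2 1.42.0 size factors, upper quartile scaling, library totals, no filter, deposited TPM, a transcript length offset, protein-coding transcripts only, a fold of 1.5, and leaving out each file. Some genes of the lists enter the counts but are not reported here by name.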

Additional observations from a re-analysis of the deposited data

How the results depend on the processing

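No paired analysis was possible because each group holds 1 independent library, so no fit has residual degrees of freedom. The count of 0 called scaffold genes was 0 under every scaling, filter, unit and left-out file tried, and was 2 with a fold of 1.5. The count of 14 called transcripts lay between 13 and 15 when 1 file was left out. It was 10 on deposited TPM, 19 with no filter on low counts, 20 with a fold of 1.5 and 6 with protein-coding transcripts only. The Homer1 ratio of 1.21 was 1.47 on deposited TPM. The short-transcript share of Homer1, 5.51 points above control, was 1.06 points in reads and between 0 and 10.7 points when 1 file was left out, since only the first sleep-deprived file held such reads. The 9 transcripts whose share differed by at least 10 points were 15 at 5 points. The ratio of Dlg4-218, 0.136, was 5.69 without the second control file and 0.0680 without the first.

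Deposited TPM moved the median gene to a ratio of 1.16. On that scale Homer2 stood at 0.988 and Shank2 at 1.03, in place of 0.526 and 0.846. With the length offset Homer2 stood at 0.846 and Dlg4 at 0.728. With protein-coding transcripts only, Homer3 stood at 0.981, Dlg4 at 1.02 and Shank3 at 1.14. The cause of these shifts was not tested. Depth limits Homer1, with at most 358 reads per file, and Homer2, with at most 245, more than the other genes.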
